A study of Mus musculus with 3 samples.

Results

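AMP-activated protein kinase (AMPK) and the proteins that set glucose uptake in muscle were followed through 10 genes. Their rows were picked by symbol, from a list drawn up when earlier results of these data were known. They are the glucose transporter genes Slc2a4 and Slc2a1, the traffic regulator genes Tbc1d1 and Tbc1d4, and the AMPK subunit genes Prkaa1, Prkaa2, Prkab1, Prkab2, Prkag1 and Prkag3. All 10 were found, each on a single row, among 24481 gene rows. The tissue was skeletal muscle taken at postnatal day 42 from mice of the outbred ICR stock, and its messenger RNA was sequenced from the 3' ends of transcripts. There were 3 libraries, 1 per group: exercise with a treatment labelled SQH (hereafter the SQH library), exercise control, and control. The study's title names fatigue and leaf extracts of the dwarf bamboo Sasa quelpaertensis. The labels name neither the muscle sampled nor the sex of the mice, the exercise protocol or the SQH dose, and they do not say whether animals were pooled.

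AMPK is a complex of a catalytic alpha, a scaffolding beta and a nucleotide-sensing gamma subunit, and it is switched on when a working fibre runs down its ATP. GLUT4, the product of Slc2a4, waits in vesicles inside the fibre and reaches the surface after insulin or contraction. TBC1D1 and TBC1D4 (AS160) are Rab GTPase-activating proteins that hold those vesicles back until AMPK or the insulin-activated kinase Akt phosphorylates them. In mice TBC1D1 is more abundant in fast glycolytic than in slow oxidative muscles.

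With 1 library per group there is no replicate error and no test. A gene was called by size alone, when the gap between its log2 levels was 1 or more (2-fold) and its linear level averaged at least 66.5 over the 3 libraries, the median of the rows that were not at 0 in all libraries. That minimum left 7857 rows, among them 8 of the 10 genes. Slc2a1 (mean linear level 32.3) and Prkab1 (48.9) lay below it, so their differences are given as values only. Levels were read as library-size-adjusted reads on a log2 scale, unless called linear. The values carry no stated unit, and this reading was drawn from the spacing of the low values. Since reads of a 3' library do not grow with transcript length, levels of different genes were set side by side. This assumes that transcripts of different genes are captured and counted alike, which was not tested. Each difference carries a ± for counting error, a standard error worked out from approximate read numbers. It covers neither animals nor library preparation.

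Tbc1d1 was the only one of the 10 genes to be called in any comparison. Its level was 8.67 in the SQH library, 9.25 in the exercise control and 7.36 in the control, or about 530, 512 and 175 reads. Both exercised libraries therefore lay above the control, and the exercise control was the highest. Tbc1d1 was 3.70-fold higher in exercise control than in control muscle (1.89 ± 0.13 on the log2 scale), a size that 1.3% of the tested rows reached in either direction. It was 2.47-fold higher in the SQH library than in the control (1.31 ± 0.13), a size reached by 1.0% of the rows. The SQH library lay 0.58 below the exercise control (-0.58 ± 0.09), short of a call. The gene spans chromosome 5 from 64156305 to 64351486 on the plus strand of the mouse build GRCm38 and shares no exonic base with another annotated gene.

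The paralogous gene Tbc1d4 differed little between libraries, at 8.99 in the SQH library, 9.15 in the exercise control and 9.12 in the control. Its 3 differences were 0.03 ± 0.09 for exercise control minus control, -0.16 ± 0.09 for SQH minus exercise control and -0.13 ± 0.08 for SQH minus control. It lies on chromosome 14, from 101442360 to 101609191 on the minus strand. Of the summed linear level of the 2 TBC1D genes, Tbc1d1 made up 44.4% in the SQH library, 51.7% in the exercise control and 22.8% in the control. The exact binomial 95% intervals at the approximate reads, which cover counting error only, were 41.5 to 47.3%, 48.6 to 54.9% and 19.9 to 26.0%. Tbc1d4 thus had the higher level of the pair in the control by a wide margin and in the SQH library by a narrow one. The interval of the exercise control included equal levels.

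The regions around the annotated starts of the 2 TBC1D genes are shown because Tbc1d1 was called and Tbc1d4 was not. RefSeq (GRCm38.p6) gives Tbc1d1 2 starts and Tbc1d4 1, and each window holds 250 bases before and 50 after a start. Reads from the 3' end do not tell which start was used. Capitals mark E-boxes (CANNTG, the motif bound by MyoD and by clock factors, searched on both strands).
Tbc1d1, first start, plus strand, chr5:64160010-64160309: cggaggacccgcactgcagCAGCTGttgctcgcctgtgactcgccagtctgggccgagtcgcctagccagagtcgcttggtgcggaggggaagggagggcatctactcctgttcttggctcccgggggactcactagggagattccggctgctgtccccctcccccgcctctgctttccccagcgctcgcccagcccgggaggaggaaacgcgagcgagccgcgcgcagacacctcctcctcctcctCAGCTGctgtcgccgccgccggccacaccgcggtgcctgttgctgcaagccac
Tbc1d1, second start, plus strand, chr5:64230107-64230406: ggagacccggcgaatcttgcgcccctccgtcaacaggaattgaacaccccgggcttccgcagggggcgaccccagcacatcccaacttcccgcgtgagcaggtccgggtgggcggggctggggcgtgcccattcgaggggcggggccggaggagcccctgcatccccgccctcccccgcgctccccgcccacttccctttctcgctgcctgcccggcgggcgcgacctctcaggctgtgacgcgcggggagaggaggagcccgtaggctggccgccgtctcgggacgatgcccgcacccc
Tbc1d4, minus strand, chr14:101609142-101609441: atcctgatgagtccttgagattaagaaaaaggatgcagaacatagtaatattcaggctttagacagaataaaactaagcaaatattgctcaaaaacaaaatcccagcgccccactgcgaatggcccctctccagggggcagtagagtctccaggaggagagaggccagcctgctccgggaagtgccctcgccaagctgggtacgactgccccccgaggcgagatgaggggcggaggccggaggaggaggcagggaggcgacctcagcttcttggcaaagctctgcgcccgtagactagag
The first Tbc1d1 window holds 2 E-boxes, both CAGCTG, and the other windows shown hold none, where 72.3% of all 32851 promoter windows of this length hold at least 1. No match to the MEF2 motif or to AAGGTCA, the half-site of estrogen-related receptors, was found in any of the 10 windows available for 9 of the genes (1.86% and 4.72% of all windows hold one). The GC box GGGCGG occurs 4 times in the second Tbc1d1 window and once in the Tbc1d4 window, and 35.7% of all windows hold it. G and C make up 69.3% and 74.0% of the first and second Tbc1d1 windows and 55.7% of the Tbc1d4 window. No window was available for Slc2a4.

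Slc2a4, which encodes the insulin- and contraction-responsive transporter GLUT4, had the highest level of the 10 genes in every library. It stood at 12.55 in the SQH library, 12.73 in the exercise control and 12.70 in the control, or 5980, 6775 and 6640 on the linear scale. The exercise control differed from the control by 0.03 ± 0.03 and the SQH library from the exercise control by -0.18 ± 0.03. The SQH library differed from the control by -0.15 ± 0.02, and 67.5% of the tested rows differed by at least as much in that comparison. These small differences depended on scaling. Quantile normalization gave 0.12 for exercise control minus control, -0.14 for SQH minus exercise control and -0.03 for SQH minus control, and centring each library on its median gave 0.08, -0.28 and -0.19. Slc2a4 lies on chromosome 11, from 69942539 to 69948188 on the minus strand.

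Slc2a1 encodes GLUT1, the transporter of basal glucose uptake, which is abundant in endothelium of the brain and in perineurium. It had the lowest level of the 10 genes in each library, at 5.50 in the SQH library, 4.71 in the exercise control and 4.66 in the control. Those levels rest on about 59, 22 and 27 reads. The SQH library lay above the other 2, by 0.79 ± 0.36 over the exercise control and by 0.84 ± 0.34 over the control, while exercise control minus control was 0.05 ± 0.41. In bulk tissue a change in the cells that carry a transcript and a change in RNA per cell cannot be told apart. The endothelial markers summed to 3599 on the linear scale in the SQH library, 4407 in the exercise control and 4058 in the control (7 of 9 past the minimum, none at 0). The Schwann cell and perineurium markers summed to 1565, 4631 and 1461 in the same libraries (6 of 9 past the minimum, none at 0). Adipocyte markers summed to 5340, 3741 and 4703 (4 of 9 past the minimum) and immune markers to 129.1, 45.89 and 60.14 (0 of 7 past it). Both sums were highest in the SQH library, as Slc2a1 was, whereas the erythroid, fibroblast, and smooth muscle and pericyte sums were not. The part of any of these cells in the Slc2a1 values was not tested. Slc2a1 lies on chromosome 4, from 119108711 to 119137983 on the plus strand, and shares 105 exonic bases with an antisense gene, Gm12868, whose reads may be counted with it because strand handling is not given. Slc2a4 made up 99.2% of the summed level of the 2 transporter genes in the SQH library, 99.6% in the exercise control and 99.6% in the control.

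**Figure D1:**
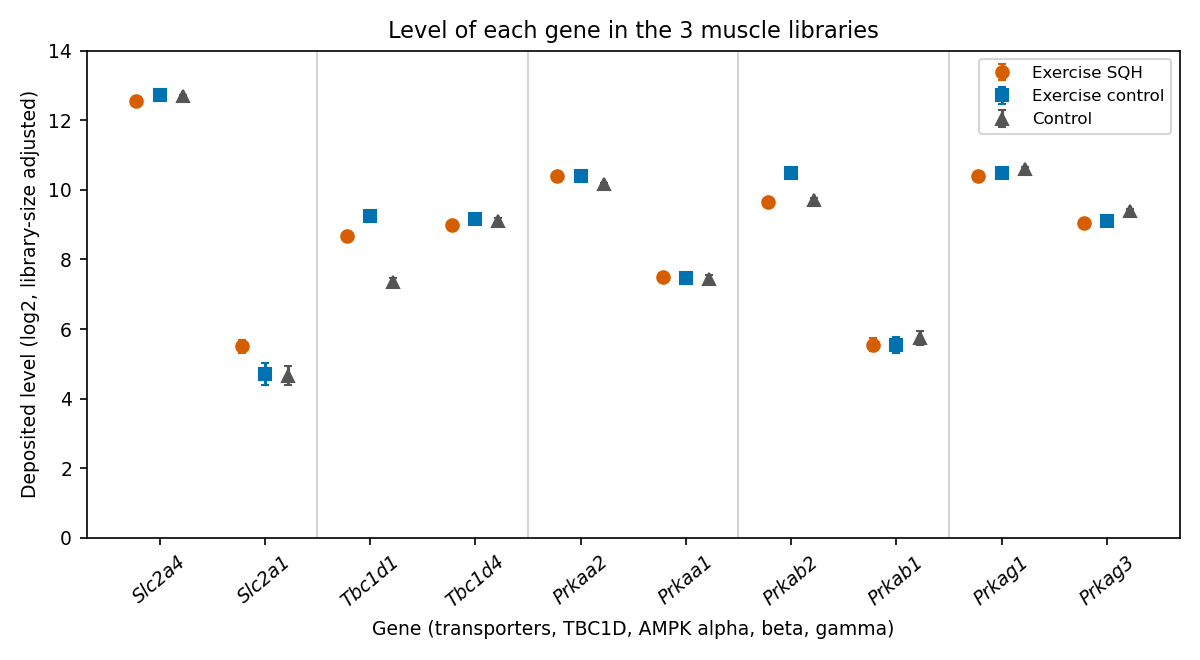
Level of each gene (log2, library-size adjusted) in the SQH, exercise control and control libraries, left to right within each gene, with bars for the approximate standard error of counting. Tbc1d1 stands apart at 8.67 and 9.25 in the exercised libraries against 7.36 in the control, Prkab2 is highest in the exercise control (10.48), and the Slc2a4 points lie between 12.55 and 12.73.

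The catalytic subunit genes differed little. Prkaa2, which encodes alpha2, the main catalytic isoform of skeletal muscle, stood at 10.40 in the SQH library, 10.40 in the exercise control and 10.17 in the control. The 2 exercised libraries were alike and both lay above the control, by 0.23 ± 0.05 with SQH and 0.23 ± 0.06 in the exercise control. Such a size is ordinary here, since 52.9% and 62.6% of the tested rows differed from the control by at least as much in those comparisons. Prkaa1, the alpha1 gene expressed in most cell types, had the narrowest range of the 10 genes, with 7.49, 7.46 and 7.45 in the SQH, exercise control and control libraries. Prkaa2 made up 88.3% of the summed alpha level in the SQH library (interval 86.8 to 89.7%), 88.5% in the exercise control (86.6 to 90.2%) and 86.8% in the control (84.9 to 88.5%). These intervals overlap. Prkaa2 lies on chromosome 4, from 105029874 to 105109890 on the minus strand, and Prkaa1 on chromosome 15, from 5143861 to 5181899 on the plus strand.

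Among the beta subunit genes, Prkab2 differed most between the exercise control and the other libraries. Prkab2 encodes beta2, the glycogen-binding scaffold isoform that predominates in muscle. Its level was 9.65 in the SQH library, 10.48 in the exercise control and 9.72 in the control, or about 1045, 1201 and 896 reads. The exercise control was 1.70-fold above the control (0.76 ± 0.06), and the SQH library was 0.83 ± 0.06 below the exercise control on the log2 scale. Neither difference reached 2-fold, and 15.8% and 12.4% of the tested rows differed by at least as much in those comparisons. The SQH library and the control differed by -0.07 ± 0.07. Both larger differences use the exercise control library, so they are not separate observations. Prkab1, the beta1 gene, held rank 9 of the 10 genes in each library. Its level was 5.55 in the SQH library, 5.54 in the exercise control and 5.74 in the control, from about 39 to 61 reads. Its differences all lay within their counting error. Prkab2 made up 94.5% of the summed beta level in the SQH library (93.0 to 95.8%), 96.9% in the exercise control (95.7 to 97.8%) and 94.0% in the control (92.3 to 95.4%). Prkab2 lies on chromosome 3, from 97658193 to 97673812 on the plus strand, with 9 exonic bases shared with the opposite-strand gene Gm17651, and Prkab1 on chromosome 5, from 116013586 to 116024508 on the minus strand.

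The gamma subunits carry the sites that bind AMP and ATP. Prkag1, the gamma1 gene, stood at 10.40 in the SQH library, 10.49 in the exercise control and 10.61 in the control. Prkag3 encodes gamma3, an isoform largely restricted to fast glycolytic muscle, and stood at 9.04, 9.12 and 9.39 in the same libraries. Both genes were thus highest in the control and lowest in the SQH library. For SQH minus control the difference was -0.21 ± 0.05 in Prkag1 and -0.36 ± 0.08 in Prkag3. For exercise control minus control it was -0.11 ± 0.05 and -0.28 ± 0.09. For SQH minus exercise control it was -0.09 ± 0.05 and -0.08 ± 0.09. None was near 2-fold. Prkag3 made up 28.0% of the level of these 2 genes in the SQH library (26.2 to 29.8%), 27.8% in the exercise control (25.7 to 30.0%) and 30.2% in the control (28.3 to 32.0%). Prkag1 lies on chromosome 15, from 98812797 to 98831521 on the minus strand, and shares 950 exonic bases with the antisense gene B130046B21Rik, so part of its reads may belong to that gene. Prkag3 lies on chromosome 1, from 74738922 to 74749221 on the minus strand. The remaining gamma gene, Prkag2, is not among the 10 and was added after its values were seen, to complete the subunit. It stood at 8.86 in the SQH library, 9.59 in the exercise control and 9.02 in the control. Like Prkab2 it was highest in the exercise control (0.57 ± 0.08 over the control), and it was not called. Of the summed level of all 3 gamma genes it made up 19.8% in the SQH library, 27.8% in the exercise control and 18.9% in the control. Prkag2 shares 795 exonic bases with the antisense gene Prkag2os2 and 142 with Prkag2os1, so part of its reads may belong to those genes.

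**Figure D2:**
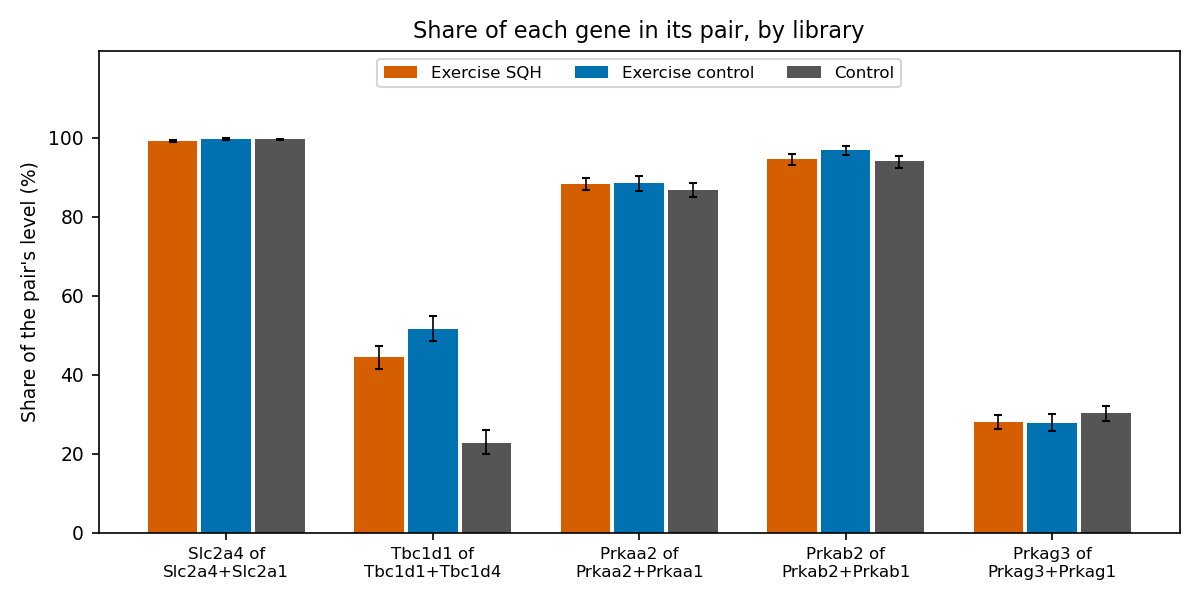
Share of the summed linear level of each pair that the first-named gene made up (%), in the SQH, exercise control and control libraries, with exact binomial 95% intervals for counting error at the approximate reads. Tbc1d1 shows the widest spread, 44.4%, 51.7% and 22.8%, while Prkaa2 stays between 86.8 and 88.5%.

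The order of the levels was similar in the 3 libraries at its ends. Slc2a4 came first and Prkag1 next in each, with a gap of 2.09 to 2.23 between them, and Prkab1 and Slc2a1 came last. In the SQH library Prkag1 and Prkaa2 (0.00 ± 0.05), Prkag3 and Tbc1d4 (0.04 ± 0.08) and Prkab1 and Slc2a1 (0.05 ± 0.26) lay less than 1.96 counting errors apart. In the exercise control the same held for Prkag1, Prkab2 and Prkaa2, which lay within 0.09 of each other, and for Tbc1d1, Tbc1d4 and Prkag3. In the control Prkaa1 and Tbc1d1 (0.09 ± 0.15) were the only neighbours in that order less than 1.96 counting errors apart. Tbc1d1 held rank 7 in the SQH library, rank 5 in the exercise control and rank 8 in the control.

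Exercise control against control addresses how the muscle of the exercise control group differed. Here 1 of the 8 genes past the minimum, Tbc1d1, was called higher and none lower, where 2.95% of all tested rows were called higher, 5.33% lower and 8.29% in either direction. The median difference of the 8 genes was 0.03, beside -0.04 over all 7857 rows, and 6 of the 8 differed by less than 0.5. Exercise plus SQH against exercise control sets the 2 exercised libraries side by side. With 1 library per group, SQH cannot be told apart from their other differences, among them the fibre-type and nerve transcripts described below. None of the 8 genes was called, where 5.68% of rows were called higher, 2.33% lower and 8.01% in either direction, and the median was -0.12 beside 0.03 over all rows. With each library centred on its median, which shifts this comparison by -0.10, the rows called became 356 higher and 252 lower in place of 446 and 183, and still none of the 8 genes was called. In exercise plus SQH against control, Tbc1d1 was again called higher and no gene lower, where 1.76% of rows were called higher, 1.26% lower and 3.02% in either direction. The median of the 8 genes there was -0.10, beside -0.02 over all rows. A single gene carries both counts, its 2 calls share the control library, and with 8 genes such a count says little beside these shares of rows.

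**Figure D3:**
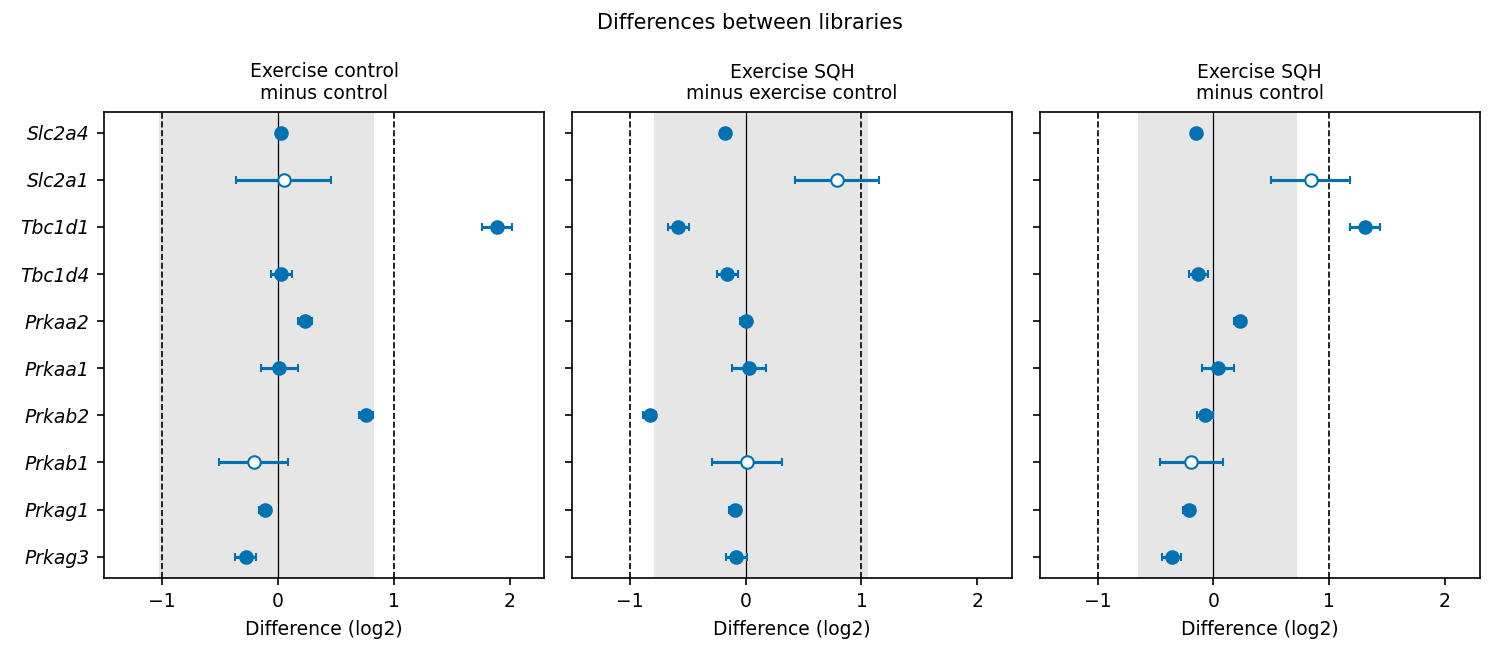
Difference of each gene (log2) between exercise control and control, SQH and exercise control, and SQH and control, with the counting standard error. Filled points passed the minimum level, dashed lines mark 2-fold, and the grey band holds the central 90% of all tested rows; Tbc1d1 lies beyond 2-fold at 1.89 and 1.31, and Slc2a4 stays within 0.18 of 0.

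The libraries differed in fibre-type transcripts, and the values are given here beside the genes they may touch. All 12 skeletal muscle fibre markers were past the minimum and none was at 0 in any library. The 10 slow-fibre markers summed to 445300 on the linear scale in the SQH library, 49430 in the exercise control and 561100 in the control, and all 10 were called lower in exercise control than in control muscle (median -3.61). The 12 fast-fibre markers summed to 575500, 878900 and 662500 in the same libraries, with a median of 0.40 for exercise control minus control. Tbc1d1 was highest in the library with the highest fast-fibre sum. In the SQH library, however, that sum was below the control and Tbc1d1 was above it. The fibroblast sums (11830, 15440 and 10100) and the Schwann cell and perineurium sums (1565, 4631 and 1461) had the order of Tbc1d1. No other marker sum did. The part of fibre type or of these cells in the Tbc1d1 values was not tested. In SQH against control no slow or fast marker was called, the slow-fibre median was -0.34 with all 10 markers below 0, the fast-fibre median was -0.27, and Tbc1d1 differed by 1.31 ± 0.13. Nerve transcripts also set the exercise control apart. Of 6 Schwann cell and perineurium markers past the minimum, 5 were called higher in exercise control than in control muscle (median 1.47), 5 were called lower in SQH against exercise control (median -1.55), and none was called in SQH against control. Prkab2 and Prkag2 were likewise highest in the exercise control. So were the fast-fibre, fibroblast and endothelial sums, while the slow-fibre, adipocyte and immune sums were lowest there. The part of fibre type or of any of these cells in the Prkab2 and Prkag2 values was not tested. Prkag3 and the fast-fibre sum were both lower in the SQH library than in either other library, whereas in exercise control against control Prkag3 was lower and the sum higher. Estimated depth was 12.4 M reads in the SQH library, 8.12 M in the exercise control and 10.8 M in the control.

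The genes nearest to 3 of the members in their differences were also listed. Likeness was measured as the distance between genes in 2 differences, exercise control minus control and SQH minus control, over the 3 libraries and 7519 named genes past the minimum. For Tbc1d1 only 1 gene lay within 0.25, Gcat (glycine C-acetyltransferase, a threonine-degrading enzyme), at 6.48 in the SQH library, 6.94 in the exercise control and 5.27 in the control. The next were the interferon-induced Ifit3 at a distance of 0.297 and the imprinted Peg3 at 0.302. For Slc2a4, 1301 genes lay within 0.25, the nearest being Myom1 (the M-band protein myomesin), Ppm1d (a phosphatase) and Ints5 (an Integrator subunit). For Slc2a1, the member with the next widest range after Tbc1d1, 84 genes did, led by Ndnl2, Fbxl12 and the early response gene Egr1. Because the radius is fixed, a gene with large differences has few neighbours and a gene near 0 has many. The 3 neighbour counts therefore restate the sizes of the differences and do not measure how rare a pattern is. Fbxl12 shares 1890 exonic bases with Ubl5, Myom1 shares 207 with Myl12a, and Gcat shares 363 with Galr3, which was listed at 0 in every library. Ints5 shares 469 on the same strand with Gm49416, which has no row of its own.

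Genes that act around AMPK and GLUT4 were counted in 7 lists. Their counts stand beside the shares of all rows called in either direction, 8.29% for exercise control against control, 8.01% for SQH against exercise control and 3.02% for SQH against control. The shares of rows above 0 were 46.3%, 52.1% and 48.7% in the same order. Among 12 upstream kinases and regulators of AMPK past the minimum, Cab39l, which encodes an MO25 scaffold of the activating kinase LKB1, was called lower in exercise control than in control muscle (-1.22 ± 0.23) and higher in the SQH library than in the exercise control (1.13 ± 0.23). Cab39l shares 261 exonic bases with Cdadc1. Fnip2, a folliculin partner that binds AMPK, was called higher with SQH, by 1.08 ± 0.23 over the exercise control and 1.39 ± 0.23 over the control. The list medians were -0.12, 0.40 and 0.00 for exercise control minus control, SQH minus exercise control and SQH minus control. In the same order the medians over all rows were -0.04, 0.03 and -0.02.

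Of 14 AMPK substrates past the minimum, 1 was called in exercise control against control, 1 in SQH against exercise control and 2 in SQH against control, and Pfkfb3 and Ppargc1a were the only genes among them. Pfkfb3, an enzyme gene that sets the level of an allosteric activator of glycolysis, stood at 11.24 in the SQH library, 10.73 in the exercise control and 8.84 in the control. Ppargc1a, the gene of the mitochondrial coactivator PGC-1alpha, stood at 12.41, 11.35 and 10.75 in the same libraries. Pfkfb3 was called higher than the control in both exercised libraries and Ppargc1a in the SQH library alone, where it also exceeded the exercise control (1.06 ± 0.04). The substrate medians were 0.04 for exercise control minus control, 0.32 for SQH minus exercise control and 0.32 for SQH minus control. Of the 7 AMPK-related kinases past the minimum, 6 lay below the control in the SQH library and 6 in the exercise control, where about as many of all rows lay below as above. Nuak1 (-2.08 ± 0.07) and Mark1 (-1.79 ± 0.31) were called lower in exercise control than in control muscle. In the SQH library Mark1 (1.46 ± 0.31), the salt-inducible kinase gene Sik1 (1.40 ± 0.17) and Nuak1 (1.16 ± 0.07) were called higher than in the exercise control, and none was called against the control. The kinase medians were -0.44, 0.42 and -0.22 in the same order of comparisons.

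The GLUT4 vesicle traffic list held 20 genes past the minimum and had medians near 0 in each comparison (0.01, -0.02 and -0.04). Vamp2, the vesicle SNARE of GLUT4 storage vesicles, stood at 9.29 in the SQH library, 7.72 in the exercise control and 8.99 in the control. Trip10, which encodes the Cdc42-interacting adaptor CIP4, stood at 10.13, 7.88 and 9.53 in the same libraries. Both were lowest in the exercise control, and both were called lower there than in the control (-1.27 ± 0.12 for Vamp2 and -1.65 ± 0.11 for Trip10). Both were called higher in the SQH library than in the exercise control (1.57 ± 0.12 and 2.25 ± 0.11). The motor gene Myo5a was called lower in SQH against exercise control (-1.17 ± 0.21). None of the 20 was called for SQH against control, where Pak1, a kinase downstream of Rac1, differed most (0.67 ± 0.10).

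Insulin signalling genes past the minimum numbered 15, with medians of -0.17 for exercise control minus control, 0.46 for SQH minus exercise control and -0.08 for SQH minus control. The adaptor genes Grb14 and Grb10, whose products restrain the insulin receptor, were called lower in exercise control than in control muscle (-2.02 ± 0.15 and -1.04 ± 0.10). Grb14 was called higher in the SQH library than in the exercise control (1.11 ± 0.16). Prkci, an atypical protein kinase C gene, was called higher with SQH, by 1.49 ± 0.21 over the exercise control and 1.68 ± 0.20 over the control. The list of other glucose transporters and hexokinases also holds Txnip, which encodes neither. Only 3 of its 13 genes passed the minimum, Hk2, Slc2a12 and Txnip, and none was called. Hk2, the hexokinase of insulin-responsive muscle, stood at 13.48 in the SQH library, 13.32 in the exercise control and 13.03 in the control. The transporter gene Slc2a12 stood at 7.28, 6.64 and 6.65 in the same libraries and shares 407 exonic bases with Tbpl1, which was also highest with SQH (8.97, 8.04 and 8.60).

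Among 14 regulators of Slc2a4 transcription past the minimum, the orphan receptor gene Nr4a3 was called higher against the control in both exercised libraries, by 2.02 ± 0.20 in the exercise control and by 2.58 ± 0.19 with SQH. Nr4a1 was called lower in exercise control than in control muscle (-1.07 ± 0.11), and Ppargc1a, which is on this list too, is described above. Slc2a4 itself was not called in any comparison. The medians were -0.13 for exercise control minus control, 0.39 for SQH minus exercise control and 0.16 for SQH minus control. In SQH minus exercise control, 6 of the 7 lists had a median above 0 and the traffic list did not. Centring each library on its median shifts this comparison by -0.10. Some genes, Ppargc1a among them, are on 2 lists, and 1 list has only 3 genes past the minimum. The list medians are therefore not separate observations. Several of these genes, like the slow-fibre markers, were lowest in the exercise control library, and it enters 2 of the 3 comparisons.

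**Figure D4:**
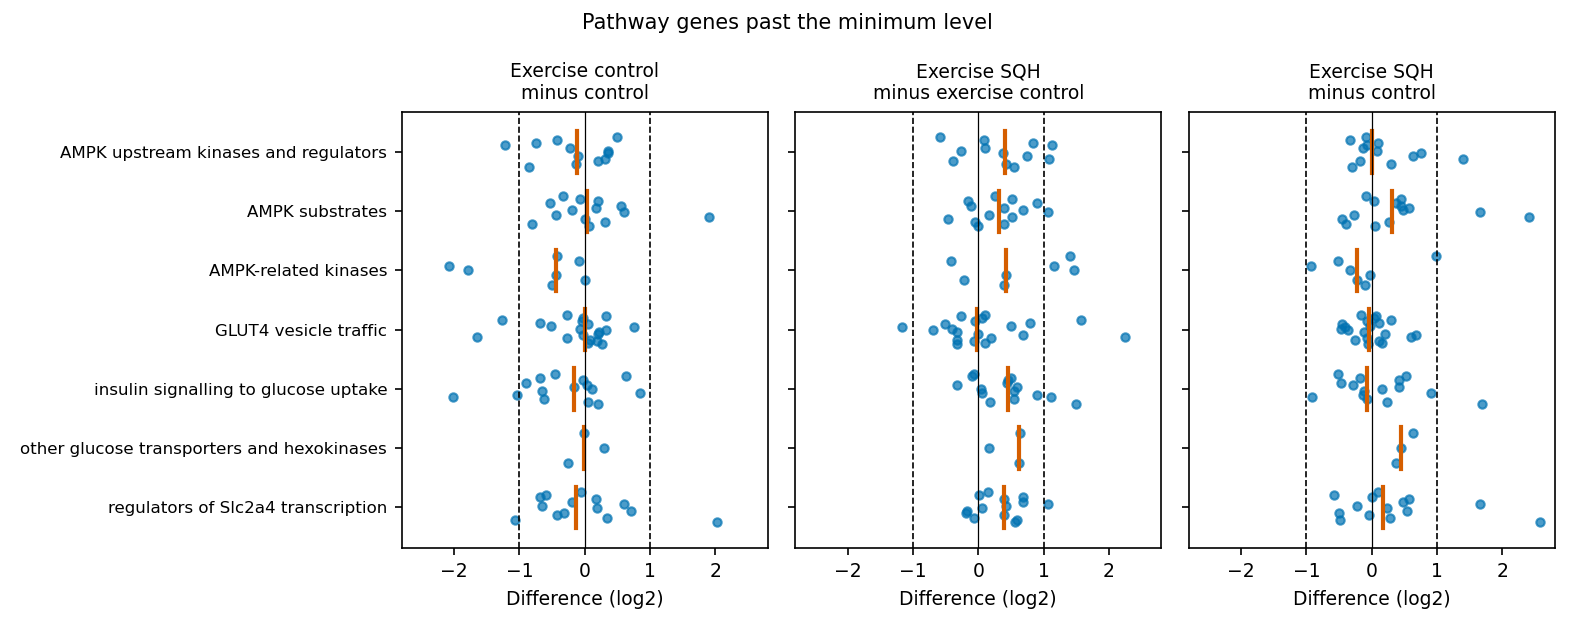
Differences (log2) of the genes past the minimum level in 7 lists around AMPK and GLUT4, 1 point per gene, for exercise control minus control, SQH minus exercise control and SQH minus control. Orange lines are list medians and dashed lines mark 2-fold; the GLUT4 traffic medians stay between -0.04 and 0.01, while points beyond 2-fold include Nr4a3, Pfkfb3, Nuak1, Grb14 and Trip10.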

How the data were processed

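Total RNA of skeletal muscle (500 ng per library) was made into Lexogen QuantSeq 3' libraries, per the labels' protocols. Bowtie2, edgeR and the build mm10 appear in the submitters' processing notes without versions or roles, and no counter, annotation, filter or strand handling is given in the sources used here. The authors deposited 1 log2 value per gene and library. Low values, made linear, bunch at multiples of a step (0.766 in the SQH library, 1.19 in the exercise control, 0.939 in the control). In that order 84.6%, 95.7% and 100.0% of low values (linear 9 or less) were within 0.2 step of a multiple. Linear level divided by step gave approximate reads, too inexact for a count model.

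The call rule was planned without p-values and was applied to all rows. It was tried on simulated libraries with counting noise only. That trial cannot show how often differences between animals or library preparations alone would pass the rule. Members and lists were chosen with earlier results of these data known. All 10 genes were named, and from each list up to 4 called genes per comparison, or the largest difference where none was called. Txnip was named besides, to show what its list holds. Tools were Python 3.11.15, numpy 2.4.6, pandas 2.3.3, scipy 1.17.1 and matplotlib 3.10.9. Positions and exonic overlaps are from GENCODE M21 (GRCm38, which is mm10) and promoter windows from RefSeq. Alternatives changed the scaling, minimum, pseudocount (10) and threshold (1.5-fold and 3-fold).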

Additional observations from a re-analysis of the deposited data

How the results depend on the processing

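The Tbc1d1 call in exercise control against control was made under all 8 alternatives, with differences of 1.83 to 1.94 across scalings and a pseudocount of 10. In SQH against control it was made under all but the 3-fold threshold, which left 0 of the 10 genes and 0.56% of rows called. A 1.5-fold threshold called 2 of the 8 genes past the minimum higher in exercise control against control (Tbc1d1 and Prkab2). It called 1 of them lower in SQH against exercise control (Prkab2). At that threshold 25.6% and 24% of all tested rows were called in either direction in those comparisons, so these counts do not set the genes apart. Without a minimum level Slc2a1 and Prkab1 entered, and neither was called. In that setting 20.3% of rows were called in exercise control against control, 19.4% in SQH against exercise control and 14% in SQH against control. Centring and quantile normalization turned the sign of the differences of Prkaa1 (0.03) and Prkab1 (0.01) for SQH minus exercise control, to -0.07 and -0.04 for Prkaa1 and to -0.08 and -0.14 for Prkab1. Of the differences of the 10 genes, 4 moved by more than 1.96 counting errors, all of them of Slc2a4, which had the most reads. For exercise control minus control they went to 0.08 (centring) and 0.12 (quantile) from 0.03. For SQH minus exercise control the move was to -0.28 (centring) from -0.18, and for SQH minus control to -0.03 (quantile) from -0.15. Centring shifts all genes alike, by -0.10 for SQH minus exercise control, which exceeds 1 counting error in other genes too. Prkaa2 went from 0.00 to -0.10 (± 0.05) and Prkab2 from -0.83 to -0.93 (± 0.06). All 15 shares stayed within their intervals when 1 was taken off each linear value.

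Counts over all rows followed the minimum and the threshold by construction. For exercise control against control, rows called higher and lower were 1113 and 1536 with no minimum, 75 and 158 with the minimum at the upper quartile, 796 and 1216 at 1.5-fold and 42 and 125 at 3-fold, in place of 232 and 419. For SQH against exercise control they were 1548 and 1003, 166 and 52, 1159 and 729, and 136 and 23 under the same settings, in place of 446 and 183. For SQH against control they were 1015 and 837, 36 and 22, 582 and 500, and 29 and 15, in place of 138 and 99. Taking the minimum from only the 2 libraries compared, chosen after seeing the data, changed no call of the 10 genes. No paired analysis was possible because each group has 1 library. For the same reason no library could be left out of a comparison. Depth limits Slc2a1 and Prkab1, which rest on 22 to 61 reads per library.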
